A study of Homo sapiens with 6 samples.

Results

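The *MYC* family and the EP400 complex are described here as they came down with the RNA-binding protein IGF2BP3 in WaGa cells. The members were chosen by name and number 10 of the 60655 genes in the count table. The MYC family set holds *MYC*, *MYCN*, *MYCL* and *MAX*, and the EP400 set holds *EP400*, *TRRAP*, *KAT5*, *DMAP1*, *RUVBL1* and *RUVBL2*. Each symbol matched exactly 1 row, and all 10 passed the expression filter that left 14507 genes for testing. *MYC* is included as the transcript that the study used as a negative control for IGF2BP3 binding, next to its paralogs. The paper describes *MYC* as not enriched in these same libraries, so its value here is not independent evidence. The paper also measured *MYC* by RT-qPCR after immunoprecipitation in WaGa and MKL1 cells, and reports no enrichment there.

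WaGa is an established Merkel cell carcinoma (MCC) cell line that carries Merkel cell polyomavirus (MCPyV), and it stands for MCC as a single line. RNA immunoprecipitation sequencing (RIP-seq) was performed on wild-type, untreated WaGa cells with an antibody to IGF2BP3, labelled IMP3, or with IgG as the negative control. The 6 libraries comprised 3 from IGF2BP3 IP and 3 from IgG IP, described as independent replicates and numbered 1 to 3 in both groups. No input RNA was analysed here, so a value is the RNA recovered with one antibody relative to the other and not a cellular RNA level.

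MYC, MYCN and MYCL are basic helix-loop-helix leucine zipper transcription factors that bind E-box DNA as heterodimers with MAX. The EP400 (TIP60, or NuA4) complex exchanges histone variants and acetylates histones, and it works as a MYC coactivator. In virus-positive MCC the small T antigen of MCPyV is known to bring MYCL together with the EP400 complex to activate transcription, and MYCL, rather than MYC, is the family member usually expressed in this tumor. IGF2BP proteins have long been known to bind *MYC* mRNA in other cell types, where they stabilize it.

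The libraries held 9758759 to 14886414 counts on genes. The 7 MCC markers *KRT20*, *SYP*, *CHGA*, *ENO2*, *ATOH1*, *INSM1* and *SOX2* were all detected, summing to between 3427 and 3967 CPM (counts scaled to the effective size of each library) in the IgG IP and between 3620 and 3938 in the IGF2BP3 IP. None of 3 fibroblast, 4 immune and 2 endothelial markers passed the filter, with at most 8 counts in a library, and of 2 keratinocyte markers *KRT5* passed with at most 11 counts while *KRT14* was at 0 throughout. Replicate 1 stood apart. Set against another library of its group, it gave a chi-square of 18.2 to 21.9 per degree of freedom, where replicates 2 and 3 gave 2.20 and 3.25. Values without both replicate 1 libraries are also given for the members that moved most.

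IGF2BP3 is known to recognize RNA through CA-rich and GGC-containing elements, and the related m6A motif core is GGAC. The RNA sites that IGF2BP3 bound were not measured here. To show what such letters look like in the members, the 30-base coding window richest in the motifs GGAC, GGCA and CACA is printed for the mRNAs on which the results turn, with the motif letters in capitals. They were read from canonical GENCODE transcripts (version 44, GRCh38) on the sense strand, with overlapping matches allowed.
EP400: agctcagctGGCAtccatCACAGGACCACA
TRRAP: attgcttGGCACAaaaaaaCACAagaGGAC
MYCL: cGGACtgcactcccagcctcgaagccGGCA
MAX: gtagGGACCACAtcaaagacagctttCACA
The *EP400* window lies at chr12:132023796-132023825 on the plus strand and holds 1 GGAC, 1 GGCA and 2 CACA. The *TRRAP* window lies at chr7:99012110-99012139 on the plus strand, with the same numbers of matches, 2 of which share letters. The *MYCL* window lies at chr1:39901020-39901049 on the minus strand with 1 GGAC and 1 GGCA. The *MAX* window lies at chr14:65093746-65093775 on the minus strand with 1 GGAC and 2 CACA. Among all 30-base windows tiled over canonical protein-coding transcripts, 9.83% held GGAC, 11.6% GGCA and 11.1% CACA, and 0.129% held all of them. Each window printed is the richest of its coding sequence, so its content is fixed by that choice.

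Levels were first compared between members per transcript length, with the TPM values that the authors deposited. *MAX*, the shared dimerization partner, had the highest level in both groups, at 90.2 ± 14.8 TPM in the IgG IP and 87.6 ± 11.5 TPM in the IGF2BP3 IP (SD, n = 3, as for the levels that follow). *RUVBL1*, an AAA+ ATPase of the complex, followed at 49.6 ± 8.39 TPM in the IgG IP, and *MYCL* at 44.2 ± 17.8 TPM. Then came *RUVBL2*, the partner ATPase, at 26.3 ± 4.48 TPM and *KAT5*, the acetyltransferase also named TIP60, at 19.7 ± 5.01 TPM. The ranges of *MAX* and *RUVBL1* did not overlap over the IgG IP libraries, while those of *RUVBL1* and *MYCL*, *MYCL* and *RUVBL2*, and *RUVBL2* and *KAT5* did.

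The remaining members were lower. *DMAP1*, a subunit named for its binding to a DNA methyltransferase, ranged from 3.14 to 12.4 TPM in the IgG IP, and its range lay below that of *KAT5* and overlapped that of *TRRAP*. *TRRAP*, the large adaptor that MYC contacts, and *EP400*, the ATPase that gives the complex its name, had 3.05 ± 1.28 and 3.04 ± 0.459 TPM, with overlapping ranges. Below them were *MYCN* at 1.04 ± 0.684 TPM, whose range overlapped that of *TRRAP* and not that of *EP400*, and *MYC* at 0.593 ± 0.279 TPM, whose range overlapped that of *MYCN*. In the IGF2BP3 IP the order was the same except that *EP400* (4.67 ± 1.01 TPM) and *TRRAP* (4.66 ± 0.859 TPM) changed places within overlapping ranges. With counts divided by canonical transcript length, *TRRAP* (8.15) instead lay above *EP400* (5.46) in the IGF2BP3 IP, so the order of these genes depends on the unit. Among the 3 MYC paralogs, *MYCL* ranged from 23.6 to 59.3 TPM over all 6 libraries, where *MYCN* reached at most 1.76 and *MYC* at most 1.08.

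**Figure D1:**
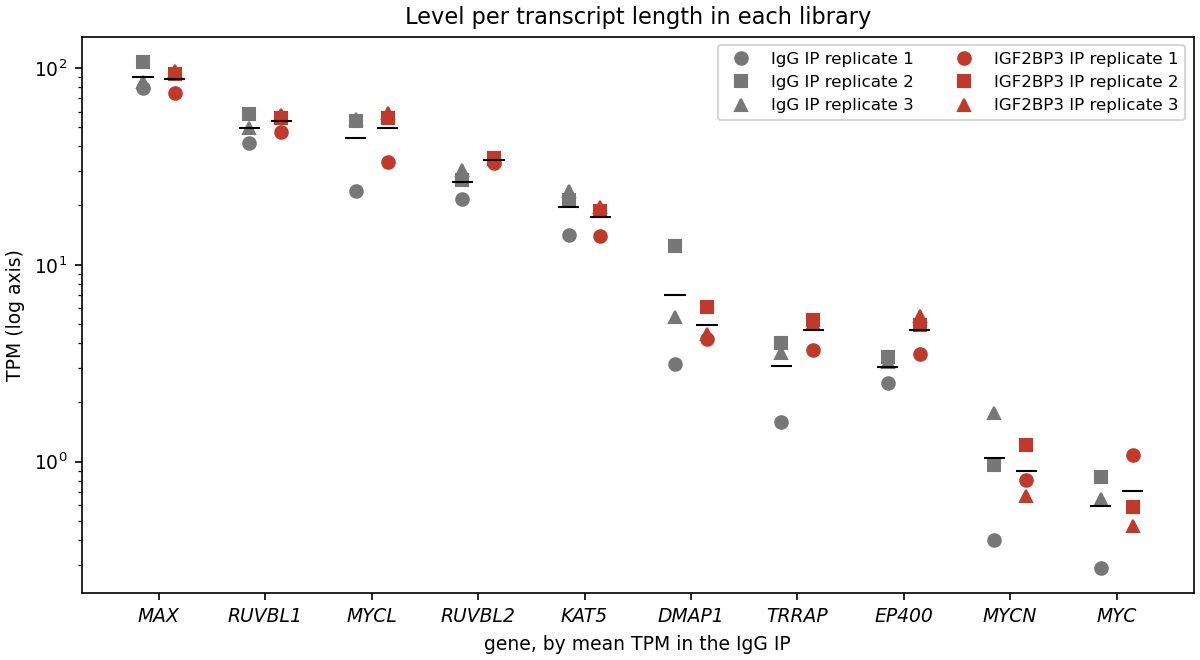
TPM of the 10 members in each library on a log axis, in gray for IgG IP and red for IGF2BP3 IP, with short lines at group means. *MAX* lies highest and *MYC* and *MYCN* lowest in both groups, and *MYCL*, at 23.6 to 59.3 TPM, lies far above both in every library.

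To ask which member transcripts were recovered more with the IGF2BP3 antibody, counts were normalized by TMM and tested across all 14507 genes with edgeR's quasi-likelihood test. An RNA was called enriched at a fold change of at least 1.5 (0.585 on the log2 scale) with an adjusted p (Benjamini-Hochberg) under 0.05. By this rule 169 genes were enriched (1.16% of those tested) and 0 were lower (0%). None of the 10 members was called in either direction. At an unadjusted p under 0.05, 1 member, *EP400*, was higher and 0 were lower, against 9.72% and 3.1% of all tested genes. DESeq2, which the study's methods name, also called 0 of the 10 with the same thresholds, giving no adjusted p for *MYC*.

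*EP400* (ENSG00000183495.14, chromosome 12 of GRCh38, 131949942 to 132080460, plus strand, 53 exons in the canonical transcript) came closest. In the order of replicates 1 to 3, as in all values below, its normalized CPM were 17.2, 21.2 and 17.7 with IgG and 24.1, 29.7 and 29.8 with the IGF2BP3 antibody. The groups did not overlap, with the IGF2BP3 IP higher, as in 12% of all tested genes (two-sided exact permutation p = 0.10, which is the lowest value this design can reach).

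The group means of *EP400* were 18.7 ± 2.18 with IgG and 27.9 ± 3.27 with the IGF2BP3 antibody (SD, n = 3). This is a 1.48-fold difference, just under the 1.5-fold minimum, or 0.57 on the log2 scale (standard error 0.14, 95% interval 0.26 to 0.88), with an adjusted p of 0.098 in edgeR. With DESeq2 the adjusted p was 0.032 at a log2 fold change of 0.56, and in edgeR with a block for the replicate number, which pairs the libraries, it was 0.00017 at 0.57, so that in both the p-value passed and the fold change did not. Adjusted p under 0.05 with a higher value, whatever the fold, was found in 3.2% of genes with DESeq2 and 10.9% with the block. Without both replicate 1 libraries, a choice made after seeing the data, *EP400* was called at 0.61 (adjusted p = 0.00092, same test, 3.18% of genes called higher), and without IGF2BP3 IP replicate 1 alone at 0.66 (adjusted p = 0.049, 1.64% called higher).

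By TPM the groups of *EP400* did not overlap either, at 2.52 to 3.39 with IgG and 3.54 to 5.51 with the IGF2BP3 antibody. The share of all genes whose groups separate by TPM was not counted. On the log2(TPM + 1) scale the median log2 fold change of all genes was itself raised, at 0.11. Reads of *EP400* could be shared with its transcribed pseudogene *EP400P1*, which had 93 to 115 counts per library where *EP400* had 159 to 393. The log2 fold change of *EP400P1* was -0.0053 (standard error 0.21).

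*TRRAP* (ENSG00000196367.14, chromosome 7, 98877933 to 99050831, plus strand, 73 exons) had normalized CPM of 23.3, 38.7 and 36.3 with IgG and 32.3, 49.9 and 45.9 with the IGF2BP3 antibody. Both replicate 1 libraries were low, and IGF2BP3 IP replicate 1 lay below IgG IP replicates 2 and 3, so the groups overlapped. Within each same-numbered pair the IGF2BP3 IP was higher, by 0.47, 0.36 and 0.34 on the log2 scale, an order found in 25.1% of tested genes.

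The fitted log2 value of *TRRAP* was 0.37 (standard error 0.21, 95% interval -0.10 to 0.85, adjusted p = 0.51 in edgeR). With the replicate block it was 0.38 (standard error 0.08) and the adjusted p was 0.0016, still under the fold minimum. Without both replicate 1 libraries it was 0.35 (adjusted p = 0.012, 7.85% of genes higher at that p whatever the fold). With DESeq2 the adjusted p was 0.55. *SMURF1* overlaps 23392 bases of *TRRAP* on the other strand and had 120 to 290 counts per library, with a log2 fold change of 0.04.

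*EP400* and *TRRAP* encode the largest proteins of the complex, and their canonical transcripts, of 12289 and 12675 bases, were longer than those of 98.1% and 98.3% of tested genes. Over all genes the median log2 fold change was higher in longer transcripts, at -0.06 for the 4475 tested genes under 2000 bases and 0.13 for the 584 over 10000 bases. Within that longest class, 10.4% of genes had a larger log2 fold change than *EP400* and 22.6% a larger one than *TRRAP*. Of these, the 99 genes with a GC content from 50% to 58%, a range chosen after seeing the data to hold both members, had a median of 0.38, and 22 of them lay above *EP400* and 50 above *TRRAP*. With a per-library correction for length, added after seeing the data, *EP400* was at 0.41 and *TRRAP* at 0.21. With the correction for GC content they were at 0.44 (adjusted p = 0.26, edgeR) and 0.28 (adjusted p = 0.73, edgeR). With the GC correction and the replicate block the adjusted p was 0.0026 for *EP400* and 0.014 for *TRRAP* (edgeR). With the length correction and the block it was 0.0040 and 0.051 (edgeR). All of these values were under the fold minimum. The part of length and GC content in these values was not tested further.

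**Figure D2:**
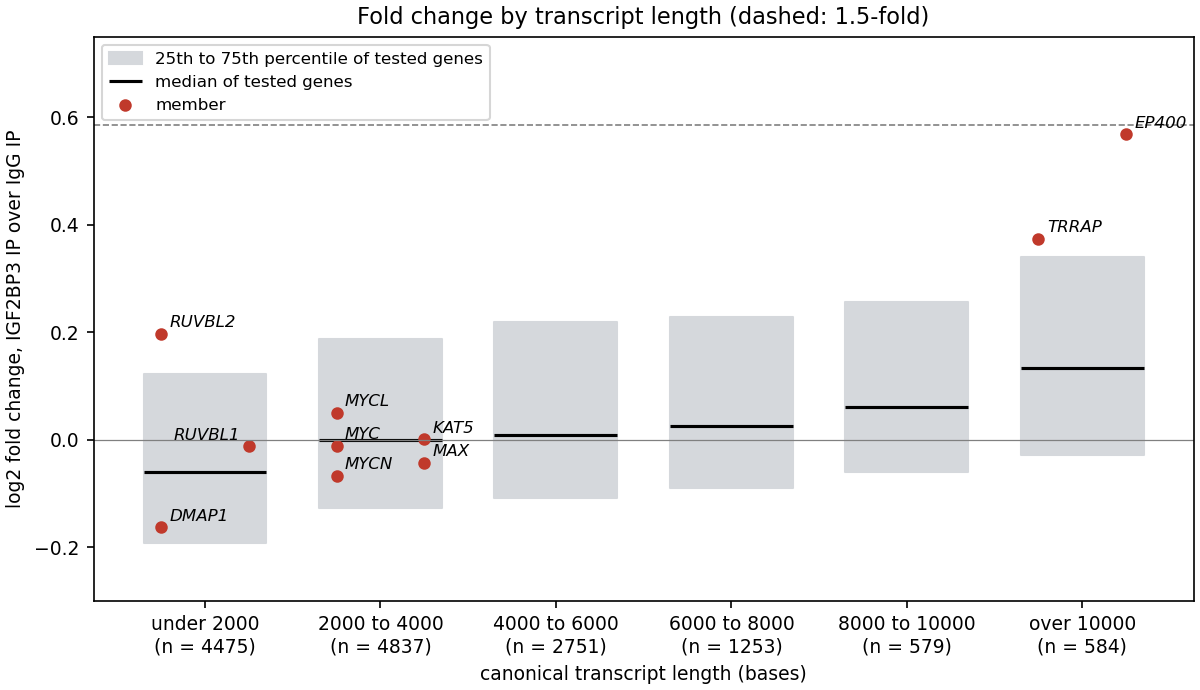
Log2 fold change (IGF2BP3 IP over IgG IP) by canonical transcript length in bases, with gray bars for the 25th to 75th percentile and black lines for the median of tested genes, and red points for the members. *EP400* and *TRRAP* sit above the upper quartile (0.34) of transcripts over 10000 bases, and the other 8 members lie between -0.16 and 0.20.

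The other 4 EP400 complex members had log2 fold changes from -0.16 to 0.20. *RUVBL2*, which forms an ATPase ring with RUVBL1, had 35.01, 32.1 and 32.8 normalized CPM with IgG and 45.5, 33.7 and 35.4 with the IGF2BP3 antibody, where replicate 1 was the highest of all. Its log2 fold change was 0.20 (95% confidence interval -0.10 to 0.49), and it was -0.0052 with the GC correction. With the replicate block the interval ran from 0.0049 to 0.36 around 0.18 (adjusted p = 0.16, edgeR). All same-numbered pairs of *RUVBL2* were higher, at 0.38, 0.07 and 0.11, an order found in 25.1% of tested genes. By TPM its groups did not overlap, with 21.45 to 30.3 with IgG and 32.7 to 35 with the IGF2BP3 antibody, so this separation depends on the unit. The share of all genes separating by TPM was not counted, and their median log2 fold change was 0.11 on the log2(TPM + 1) scale. *RUVBL1* had 81.8, 78.3 and 68.2 normalized CPM with IgG and 81.0, 72.1 and 73.4 with the IGF2BP3 antibody, with full overlap and a log2 fold change of -0.01 (95% confidence interval -0.23 to 0.21). On the other strand, *SEC61A1* overlaps 6928 bases of *RUVBL1* and had 679 to 1444 counts with a log2 fold change of 0.38 (adjusted p = 0.11, edgeR).

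*KAT5* had 22.0, 19.0 and 21.6 normalized CPM with IgG and 20.4, 20.2 and 21.9 with the IGF2BP3 antibody. Its log2 fold change was 0.0011 (95% confidence interval -0.26 to 0.27). *RNASEH2C*, which overlaps 5600 bases of *KAT5* on the other strand, had 205 to 282 counts against 203 to 284 for *KAT5*, and the counting is not stated to use the strand, so reads of the 2 genes may be mixed. *DMAP1* had 7.37, 11.4 and 7.58 normalized CPM with IgG and 9.91, 6.57 and 7.32 with the IGF2BP3 antibody. IgG IP replicate 2 was the highest library, and the log2 fold change of -0.16 had a 95% confidence interval from -0.68 to 0.36. Without both replicate 1 libraries it was -0.46 (adjusted p = 0.16, edgeR). For *RUVBL1*, *RUVBL2* and *KAT5* the interval excluded a 1.5-fold change in either direction, while for *DMAP1* it excluded a 1.5-fold rise only.

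**Figure D3:**
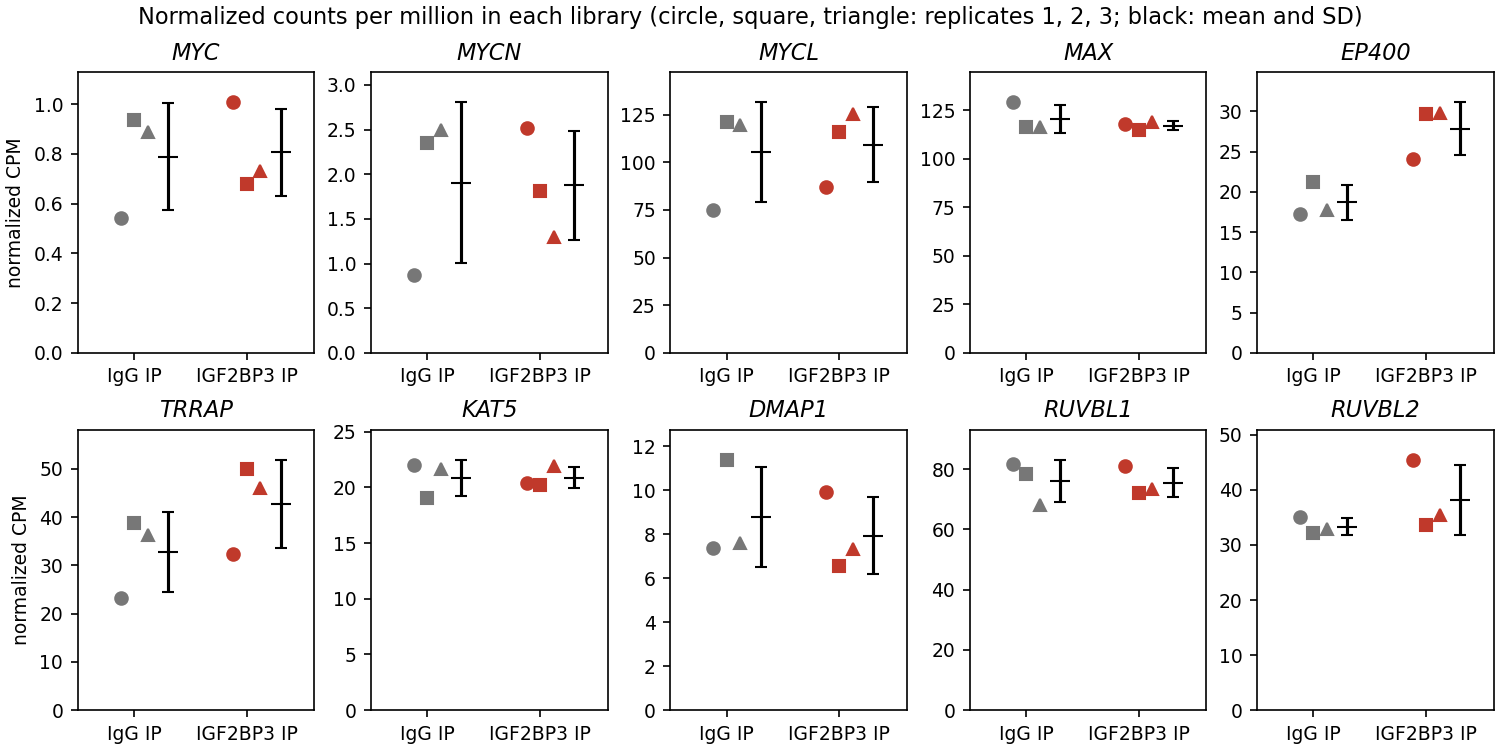
Normalized CPM of each member in every library, with circles, squares and triangles for replicates 1, 2 and 3 and black bars for the mean ± SD (n = 3) of each group. *EP400* is the member whose groups do not overlap, and *MYCL* and *TRRAP* are low in replicate 1 of both groups.

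In the MYC family, *MYCL* (ENSG00000116990.11, chromosome 1, 39895428 to 39902256, minus strand, 2 exons) had 693 to 1809 counts in a library. With IgG its normalized CPM were 75.1, 121 and 119, and with the IGF2BP3 antibody 87.0, 116 and 125. The groups overlapped, and replicate 1 was the low library in both. The fitted log2 value was 0.05 (standard error 0.19, 95% interval -0.39 to 0.49), which excludes a 1.5-fold rise or fall. With the replicate block the interval narrowed to -0.07 to 0.20 around 0.06. Without both replicate 1 libraries the value was 0.0017. The antisense gene *MYCL-AS1* had 7 to 22 counts.

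*MYCL* in replicate 1 lay below the mean of replicates 2 and 3 on the log2 scale, at -0.68 in the IgG IP and -0.47 in the IGF2BP3 IP. Averaged over both groups, this shift of -0.57 was at the 6.45th percentile of tested genes, and that of *TRRAP*, -0.62, at the 5.16th. For *MAX* it was 0.08 and for *RUVBL2* 0.25. The 3 genes whose log2 normalized CPM followed *MYCL* most closely over the 6 libraries were *SSRP1* (Pearson's r = 0.999), *NELL2* (0.997) and *CABLES1* (0.996). With 6 libraries that share the replicate 1 shift, 419 of 13899 genes had an r above 0.95, so these names describe these libraries only.

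*MAX* (ENSG00000125952.20, chromosome 14, 65006174 to 65102695, minus strand, 5 exons) had 1192 to 1738 counts per library and was the most precisely measured member. Its normalized CPM were 129, 116 and 117 with IgG and 118, 115 and 119 with the IGF2BP3 antibody. Apart from IgG IP replicate 1, all libraries lay within 115 to 119. The fitted log2 value was -0.04 (standard error 0.08, 95% interval -0.22 to 0.13). *FNTB* overlaps 56479 bases of *MAX* on the other strand with 99 to 188 counts and a log2 fold change of 0.55 (adjusted p = 0.36, edgeR).

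*MYC* and *MYCN* (chromosome 2, 15940550 to 15947007, plus strand) were near the lower limit of the data. With IgG *MYCN* had 8, 35 and 31 counts, and with the IGF2BP3 antibody 30, 24 and 16. Its log2 fold change was -0.07 (95% confidence interval -0.99 to 0.86), and its pairs went both ways, at 1.38, -0.34 and -0.86. Without both replicate 1 libraries it was -0.62, beyond 1.5-fold lower but with an adjusted p of 0.33 in edgeR. With IgG *MYC* had 5, 14 and 11 counts, and with the IGF2BP3 antibody 12, 9 and 9, and its pairs also went both ways, at 0.73, -0.39 and -0.23. Its log2 fold change was -0.011, and -0.37 without both replicate 1 libraries (adjusted p = 0.75, edgeR). With all 6 libraries the interval of both genes held a 1.5-fold change in either direction, so such a change was not excluded for either gene. The interval of *MYC* on the linear scale ran from 0.543-fold to 1.81-fold, while that of *MYCL* ran from 0.766-fold to 1.40-fold and that of *MAX* from 0.859-fold to 1.10-fold.

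**Figure D4:**
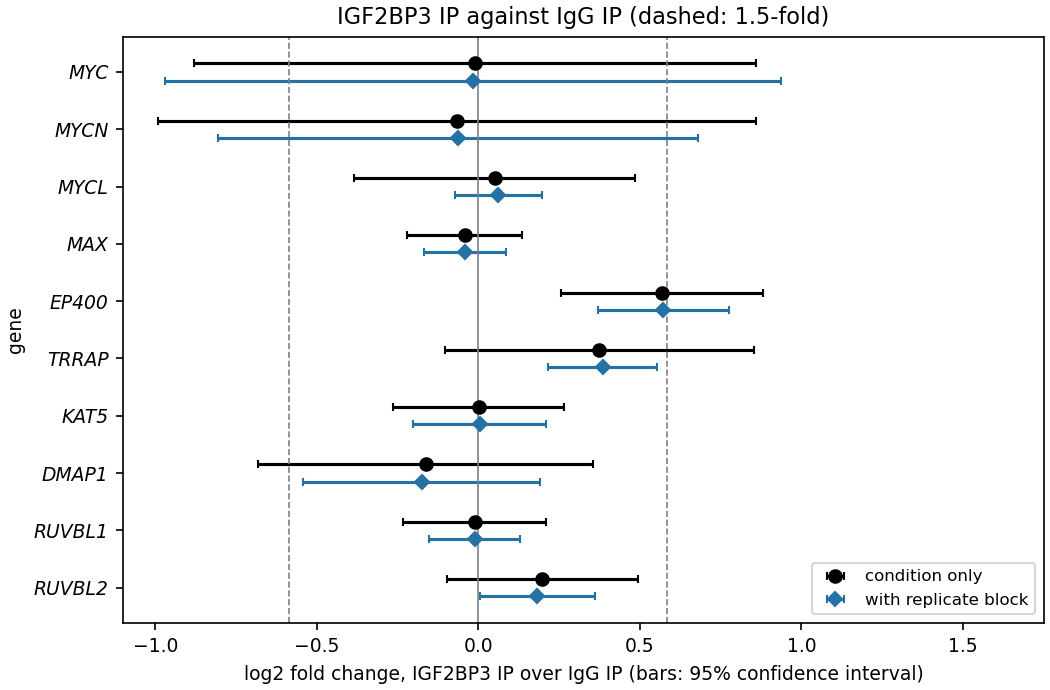
Log2 fold change of each member (IGF2BP3 IP over IgG IP) with 95% confidence intervals from edgeR, in black with condition only and in blue with the replicate block. The intervals of *EP400* lie above 0 in both fits, and those of *TRRAP* and *RUVBL2* lie above 0 with the block only. Those of *MYC* and *MYCN* cross both 1.5-fold lines.

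In sequence, the members shared a GC content above the median of tested transcripts (47.7%), from 48.8% for *MYC* to 60.3% for *RUVBL2*. The density of GGAC was likewise above the median of 3.51 per kilobase in all 10. It was lowest in *TRRAP* (3.79 per kilobase), *EP400* (3.99) and *MYC* (4.03), and highest in *DMAP1* (8.61). *EP400* and *TRRAP* stood higher for CACA, with 83 and 79 matches at 6.75 and 6.23 per kilobase, the 88.9th and 84.6th percentile of tested transcripts. *MYCL* had 3.98 CACA per kilobase, at percentile 41.5, and *MYCN* 3.83, at percentile 38.1. *RUVBL2* had 6.47, at the 86.8th percentile, *RUVBL1* 5.79, at the 79.4th, and *MYC* 5.64, at the 77.4th. *MAX*, *KAT5* and *DMAP1* were at percentiles 54.5, 50.6 and 29.4. None of the 10 members was called enriched. These are counts of letters in reference transcripts and were not tested against binding.

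The wider network was read from 6 gene lists holding 64 genes, of which 62 were tested. Across all tested genes the median log2 fold change was -0.01. In the MAX and MLX network, 1 of 9 tested genes was enriched, against 1.16% of all tested genes, and 8 of 9 had a positive log2 fold change, with a list median of 0.38. The enriched gene was *MXD4*, a MAX partner that represses transcription. Its normalized CPM were 11.8, 13.4 and 13.4 with IgG and 20.3, 20.2 and 20.0 with the IGF2BP3 antibody, with no overlap, as in 12% of all tested genes. The fitted log2 value was 0.64 with a standard error of 0.12 (adjusted p = 0.039, edgeR). With the GC correction it was 0.42 (adjusted p = 0.195), with the length correction 0.575, under the fold minimum, and the call was lost without any one of the 6 libraries.

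*MLXIP*, which encodes MondoA, a glucose-responsive partner of MLX, had 9.65, 13.3 and 10.5 normalized CPM with IgG and 18.9, 18.7 and 17.96 with the IGF2BP3 antibody. Its log2 fold change of 0.72 had an adjusted p of 0.056 in edgeR. With DESeq2 the adjusted p was 0.0076 and with the replicate block 0.00012, so that 2 of the 9 genes were enriched in each of those fits (2.22% and 3.56% of all genes called higher). *MLX* and *MXD1* had log2 fold changes of 0.43 and 0.35 with overlapping groups. Both were higher in all same-numbered pairs, as were 25.1% of all tested genes, and with the replicate block in edgeR their adjusted p was 0.00058 and 0.00072. In that fit 5 of the 9 genes were higher at an adjusted p under 0.05 whatever the fold, against 10.9% of all genes.

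Of the 13 other subunits of the EP400 complex, 12 had a negative log2 fold change and 0 passed the thresholds (edgeR and DESeq2, 0 at an unadjusted p under 0.05), with a median of -0.12 and values from -0.32 to 0.16. The count of negative values was 10 with library totals or the GC correction and 2 on the log2(TPM + 1) scale, where the median of all genes was itself raised, at 0.11. Without IgG IP replicate 1 it was 8. *ING3*, a histone methylation reader, was at -0.32, *MORF4L1*, a chromodomain subunit, at -0.16, and *ACTB*, actin, at 0.16. With the replicate block 0 passed both thresholds in edgeR, while *ING3* (adjusted p = 0.013) and *MORF4L1* (0.043) were lower and *ACTB* (0.036) higher by the p-value alone, against 5.23% of all genes lower and 10.9% higher. For *MORF4L1* each IGF2BP3 IP library lay below each IgG IP library, as in 8.69% of all tested genes and in 3 of the 13.

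Among subunits of the SRCAP and INO80 complexes, which share RUVBL1 and RUVBL2 with the EP400 complex, 0 of 14 tested genes passed both thresholds in edgeR or DESeq2. At an unadjusted p under 0.05, 2 were higher in edgeR, against 9.72% of all tested genes. *INO80D* passed the p-value alone, at 0.46 (adjusted p = 0.041, edgeR), from 102, 108 and 108 normalized CPM with IgG and 143, 158 and 134 with the IGF2BP3 antibody. An adjusted p under 0.05 with a higher value was found in 1.4% of tested genes. *NFRKB*, an INO80 subunit, was at 0.47 and *UCHL5*, a deubiquitinase bound to INO80, at -0.19.

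TRRAP belongs to the family of PI3K-related kinases, which RUVBL1 and RUVBL2 help to assemble together with the R2TP and TTT chaperone complexes. Of 10 genes in this list, 0 passed (edgeR and DESeq2, 0 at an unadjusted p under 0.05), with a median of 0.11 and 8 positive values. With the length correction the median was -0.027, with 4 positive values, where that of all genes was -0.052. With the replicate block 0 passed both thresholds in edgeR. By the p-value alone *MTOR* (adjusted p = 0.025) and *PRKDC* (0.045) were higher and *RPAP3* (0.026) lower, against 10.9% of all genes higher and 5.23% lower. *SMG1* was at 0.15, *RPAP3*, an R2TP subunit, at -0.21 and *PIH1D1*, its partner, at -0.19. Among the related kinases *MTOR* was at 0.28, *PRKDC* at 0.15, *ATM* at 0.05 and *ATR* at 0.03, all below the 0.37 of *TRRAP*. The difference between *TRRAP* and these kinases was not tested.

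Among cofactors and turnover factors of MYC, 0 of 11 tested genes passed in edgeR and 4 were higher at an unadjusted p under 0.05, against 9.72% of all tested genes. *HUWE1*, a ubiquitin ligase that can target MYC, had 53.2, 71.2 and 65.2 normalized CPM with IgG and 84.7, 131 and 106 with the IGF2BP3 antibody. The fitted log2 value was 0.76 with a standard error of 0.16 (adjusted p = 0.068, edgeR). With DESeq2 the adjusted p was 0.0017, and 1 of the 11 was enriched, against 2.22% of all genes. With the replicate block *HUWE1* (adjusted p = 1.0e-08, edgeR) and *HCFC1* (0.66, adjusted p = 5.7e-07, edgeR), a chromatin-bound host cell factor, were enriched, making 2 of 11 against 3.56% of all genes. Their canonical transcripts have 14731 and 8876 bases. With the length correction and block they were at 0.579 and 0.528, under the fold minimum. With the GC correction and block *HUWE1* stayed enriched at 0.69 and *HCFC1* was at 0.45. The list median was 0.13, and with the GC correction alone it was -0.00084, with 5 of 11 genes positive. The part of length and GC content was not tested. *GSK3B*, a kinase that marks MYC for degradation, was at 0.35 and *BPTF*, a chromatin remodeler subunit, at 0.37. They were among 5 of the 11 genes whose IGF2BP3 IP libraries all lay above the IgG IP libraries, an order found in 12% of all tested genes.

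Finally, 5 genes known as transcriptional targets of small T antigen, MYCL and EP400 in MCC were read. In edgeR and in DESeq2 0 of 5 passed. At an unadjusted p under 0.05, 1 was higher in edgeR, against 9.72% of all tested genes. *RCOR2*, a corepressor of the LSD1 complex, was at 0.25, *MDM2*, the ubiquitin ligase of p53, at -0.12 and *CSNK1A1*, casein kinase 1 alpha, at -0.11. *MDM2* had 5858 to 8692 counts per library. For *MDM2* and *CSNK1A1*, each IGF2BP3 IP library lay below each IgG IP library by normalized CPM, as in 8.69% of all tested genes. On the log2(TPM + 1) scale all 5 genes had positive values, with a list median of 0.096 where the median of all genes was 0.11.

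**Figure D5:**
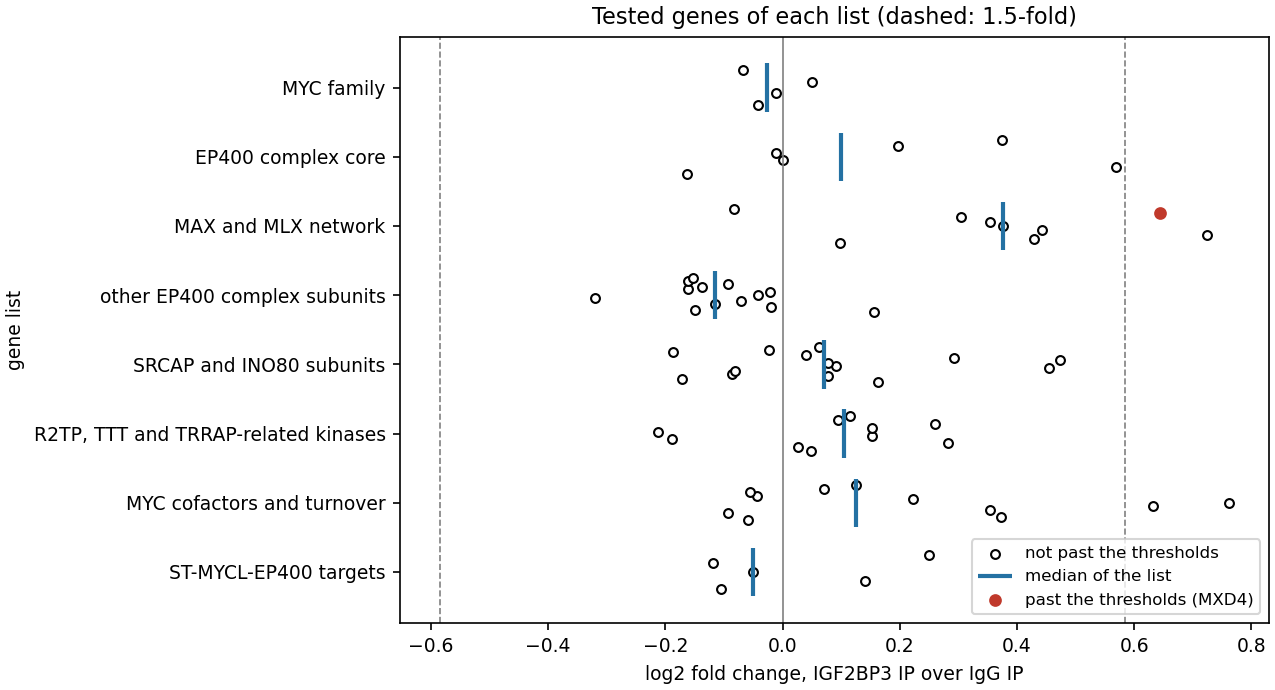
Log2 fold change (IGF2BP3 IP over IgG IP) of each tested gene by list, with blue lines at list medians, a filled red point for the gene past both thresholds and open points for the rest. *MXD4* is the one gene past the thresholds, the MAX and MLX network has the highest median (0.38), and the other EP400 complex subunits have the lowest (-0.12).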

How the data were processed

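RIP-seq was compared between 3 IgG IP and 3 IGF2BP3 IP libraries, grouped by their labels. Per the methods and labels, the authors aligned 150 bp paired-end reads to GRCh38 with STAR 2.7.9a and used RSEM with GENCODE version 37. They deposited whole-number counts per gene without normalization, and TPM and FPKM values per transcript length. The program behind the counts and its strand setting are not given in the sources used here.

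After filterByExpr and TMM normalization, counts were tested in edgeR 4.0.16 under R 4.3.3, and the model held the antibody alone. Alternatives used DESeq2 1.42.0 and limma 3.58.1. The standard error was taken as the absolute log2 fold change divided by the root of the F statistic. P-values measure the spread between 3 libraries per group. Same-numbered libraries deviated together (correlations across genes of 0.568, 0.277 and 0.231), so the replicate block was read as a pairing, although replicates 2 and 3 correlated as much when crossed (0.269 and 0.277). FPKM values served to check counts against RSEM. The ratio of counts to FPKM implied lengths of 0.636 to 0.850 of the canonical transcript for *EP400*, 0.928 to 1.33 for *TRRAP* and 0.986 to 1.04 for *MYCL*. For 90% of tested protein-coding genes, the mean ratio over libraries past an FPKM minimum lay within 0.306 to 1.38. The member values are the lowest and highest single libraries, with no FPKM minimum, so they are not directly comparable with that range. Single libraries of *MYCN* (0.873 to 1.61) and *DMAP1* (0.851 to 1.80) reached above it. Coordinates and transcripts came from GENCODE version 44 on GRCh38, which held 60481 of 60655 gene identifiers.

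The members and lists were chosen with earlier results of these data known. Named genes are the members, list genes past the thresholds or up to 3 with the smallest p-values, overlapping genes and *IGF2BP3*. The 3 genes most like *MYCL* with a mean normalized CPM of at least 1 are also named. *MTOR*, *PRKDC*, *ATM*, *ATR*, *HCFC1*, *MLXIP*, *MLX*, *MXD1*, *EP400P1*, *INO80B* and *USP28* were named outside this rule, with their values known, as were *LT* and *sT*. A check was tested on simulated data for the IGF2BP3 IP against the IgG IP with 200 changed genes. There edgeR over 14297 genes recovered 92.7% of 2-fold or 3-fold changes and 42% of 1.5-fold changes, with 10 false calls. Recovery was counted at an adjusted p under 0.05 with no fold minimum, so it does not measure the calling rule used here. The changed genes were all set at levels above those of *MYC* and *MYCN*. Counts were drawn independently for each library, without the replicate 1 shift or a pairing.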

Additional observations from a re-analysis of the deposited data

How the results depend on the processing

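Under all 22 alternatives *EP400* stayed positive, at 0.41 to 0.67, and so did *TRRAP*, at 0.19 to 0.68. *EP400* was enriched without both replicate 1 libraries (0.61, making 1 EP400 complex member) and in 1 of 6 fits that left out a library, which gave 0.50 to 0.67 and 0 to 1 EP400 complex members. No other member was called under any alternative.

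Over all genes, 169 enriched RNAs became 281 with DESeq2, 321 with DESeq2 and the replicate block, 517 with the replicate block in edgeR, 359 with no filter, 81 with the GC correction, 272 with the GC correction and block, 396 with the length correction and block, 466 without both replicate 1 libraries, 0 with limma-trend on either TPM scale, and 0 to 244 when 1 library was left out (0 without IGF2BP3 IP replicate 2, 7 without IgG IP replicate 3). RNAs lower were 15 with the block, 34 with the GC correction and block, 24 with the length correction and block, 8 without both replicate 1 libraries, and 1 each with DESeq2 and block and with no filter.

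In the MAX and MLX network 2 genes were enriched with DESeq2 (with and without block), the block, no filter and without both replicate 1 libraries. There were 0 with the GC correction (with and without block), the length correction, limma-trend, and any library left out (0 to 0). Of the MYC cofactors 2 were enriched with DESeq2 and block, the block, and no filter, 1 with DESeq2, the GC correction and block, and without both replicate 1 libraries, and 0 to 1 with a library left out. With no fold change minimum 1 SRCAP and INO80 gene passed. Beyond these counts the replicate block changed no call.

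Apart from *EP400* and *TRRAP*, each member changed sign under some alternative, none with a call. *MYC* was 0.013 with DESeq2 and block, 0.023 with library totals, 0.25 and 0.10 with limma-trend on log2(TPM + 0.1) and log2(TPM + 1), and -0.20 to 0.14 with a library left out. *MYCN* was -0.37 to 0.16 and *DMAP1* -0.36 to 0.081 with a library left out. *MYCL* was -0.094 and -0.085 with the GC correction without and with block, -0.015 and -0.0065 with the length correction, and -0.14 to 0.19 with a library left out. *MAX* was 0.00088 with library totals, 0.0059 without both replicate 1 libraries and -0.069 to 0.010 with a library left out. *RUVBL1* was 0.031 when scaled by library totals, 0.12 on both TPM scales of limma-trend, and -0.080 to 0.044 with a library left out. *RUVBL2* was -0.0052 and -0.019 with the GC correction without and with block. *KAT5* was -0.0087 with DESeq2 with or without block, -0.17 and -0.16 with the GC correction, -0.012 with RLE factors, -0.011 with no filter, -0.032 and -0.029 with the length correction without and with block, -0.15 and -0.14 with limma-trend, and -0.064 to 0.042 with a library left out. The causes were not tested.

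The length correction and the fits without both replicate 1 libraries were added after seeing the data. Lengths implied by counts and FPKM return the deposited values by construction, so that planned comparison was not run, and canonical lengths took its place. They kept the order of levels in the IgG IP, not in the IGF2BP3 IP, and moved levels in the IgG IP by over 1.5 times for *MAX* (136), *RUVBL1* (90.7), *MYCL* (69.0), *RUVBL2* (48.8), *DMAP1* (11.6), *TRRAP* (5.97) and *MYCN* (1.71). With the longest transcript in place of the canonical one, *DMAP1* had 4.83 GGAC and *RUVBL2* 5.40 CACA per kilobase.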

Other observations

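The count table also held rows for the MCPyV T antigens, of which small T antigen is the one known to bind MYCL and the EP400 complex. The gene labelled *LT* had 2750, 4830 and 4195 counts with IgG and 3138, 4260 and 3814 with the IGF2BP3 antibody. Its log2 fold change was -0.10 (95% confidence interval -0.32 to 0.12), which excludes a 1.5-fold change. The gene labelled *sT* had 40 to 58 counts per library and a log2 fold change of -0.17 (95% confidence interval -0.80 to 0.46). The antigens share viral sequence, so the split of reads between them is uncertain. *IGF2BP3* mRNA itself had 1334 to 2060 counts per library and a log2 fold change of -0.04 (95% confidence interval -0.21 to 0.13).

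Of the 64 listed network genes, *INO80B* and *USP28* did not pass the expression filter. *INO80B*, an INO80 subunit, had 0 to 3 counts per library but 3.07 to 4.87 TPM, so the counts and the RSEM values differ for this gene. *USP28*, a deubiquitinase of MYC, had 0 to 18 counts and up to 0.83 TPM.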
